A study of Mus musculus with 20 samples.

Results

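10 genes that were at or near 0 counts in cells carrying an empty CRISPR vector and clearly expressed in cells carrying guides against H2A.Z are described here across all 20 samples of a mouse T cell hybridoma. They were Ccdc91, Fcgr2b, Dpep1, Lonrf1, Lonrf3, E2f6, Cnn3, Mrvi1, Ifi30 and Gm10451, 10 of the 24391 genes counted. The choice rested on the guide and control levels themselves, so those levels are given as a description and were not tested. The levels in the other 8 samples, which received no H2A.Z guides, and the spread among the guide samples were not used for the choice.

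All 20 samples came from E2-10HA, a hybridoma that the labels call mature T cells. In the H2A.Z guide group (n = 6) the lentiCRISPRv2 vector carried guide RNAs directed at H2afz and H2afv, which encode histone variant H2A.Z, and cells were selected with puromycin. In the NICD-ER groups a retroviral plasmid encoded a Flag-tagged Notch intracellular domain (NICD) fused to the ligand-binding domain of the estrogen receptor, and sorted cells received 4-hydroxytamoxifen (4-OHT, n = 2) or ethanol (n = 2) for 24 hours. In the BioNICD groups cells carried the bacterial biotin ligase BirA and a biotin-tagged NICD, either wild type (n = 2) or the form labelled as the DEP mutant (n = 2), and were selected with histidinol and sorting. The CRISPR control (n = 6) carried the empty lentiCRISPRv2 vector with puromycin selection. All 6 guide titles carry the number 12 and were treated as samples of 1 line, so the guides and that line cannot be told apart. In 6 of the 8 CRISPR samples with replicate number 3 or more title and description name different groups (the description gives the empty vector for 2 guide samples, BioNICD for 4 controls); the integrated plasmid goes with the title, which was followed. Nothing in the labels says that replicates were grown separately, and p-values therefore cover the spread between samples, part of which may be technical.

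Total counts ran from 13309111 to 18344298 in the guide samples, from 16371601 to 48238324 in the NICD samples and from 10704131 to 15440584 in the controls. The targeted genes set the guide samples apart. H2afz averaged 5.19 CPM with the guides, between 23.1 and 29.9 CPM in the NICD groups and 28.2 CPM in the control. H2afv averaged 36.0 CPM with the guides, between 68.3 and 120 CPM in the NICD groups and 127 CPM in the control. CPM is the count of a gene scaled to a common library size, with TMM factors over all 20 samples. Among 14 T cell genes, Cd3d, Cd3e, Cd3g, Cd4, Cd2, Cd28, Lck, Zap70, Thy1 and Lat averaged 1 CPM or more in every group. Cd5 stayed under 1 CPM throughout, from 0.065 CPM (guides) to 0.475 CPM (ethanol). Cd247 split the groups. Its mean was 19.1 CPM for guides, 6.58 for ethanol and 5.72 for 4-OHT. It was lower for wild-type BioNICD (0.78), DEP cells (0.541) and the control (0.0846). Cd8a and Cd8b1 were at 0 in the guide and control groups. 2 libraries stood apart: guide replicate 1 and control replicate 1 held 59.4 and 46.2 CPM summed over 9 fibroblast and smooth muscle genes such as Col1a1. The other guide samples held 0.713 to 1.62 CPM and the other controls 0.46 to 1.23 CPM. Acta2, also on the marker list, was left out of this sum and did not mark the 2 libraries. It had 3.73 CPM in guide replicate 1, where all guide samples ran from 2.07 to 6.79 CPM. Control replicate 1 had 20.3 CPM, where all controls ran from 13.7 to 20.5 CPM. Among the 10 genes, their neighbours and the list genes named below, calls that change without these libraries, and values that move by over 1.5 times, are given beside the result. The part of those cells or reads in any result was not tested. In bulk samples, fewer cells of a type and less RNA per cell cannot be told apart.

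H2A.Z is a histone variant that replaces canonical H2A in nucleosomes, with its best-known positions beside gene starts and at enhancers, and it has been tied both to gene activation and to gene repression. Notch receptors are cleaved on contact with ligand, and the released NICD enters the nucleus and activates genes together with the DNA-binding protein RBPJ. The 10 genes belong to no single pathway. Fcgr2b and Ifi30 act in immune cells, Ccdc91 and Dpep1 in protein sorting and peptide breakdown, E2f6, Lonrf1 and Lonrf3 in transcription and ubiquitin transfer, and Cnn3 and Mrvi1 at the actin skeleton and in calcium signalling; Gm10451 is a predicted gene.

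Most of the 10 genes were also expressed in hybridoma cells that had received no H2A.Z guides. In every sample of a group, 10 of the 10 were at 1 CPM or more with the guides, 8 in NICD-ER cells with 4-OHT, 8 in NICD-ER cells with ethanol, 6 with wild-type BioNICD, 7 with the DEP mutant and 0 in the control. The corresponding shares of all 24391 genes were 40.7%, 43.1%, 43%, 44.3%, 42.6% and 40.7%. 6 genes (Ccdc91, Dpep1, Lonrf1, E2f6, Cnn3 and Ifi30) reached 1 CPM in all 8 NICD samples. Every NICD-ER sample of either treatment was above every control for 10 of the 10 genes, as was every DEP sample for 9 and every wild-type BioNICD sample for 8. For all genes these shares were 18.1% with 4-OHT, 16.3% with ethanol, 12% with the DEP mutant and 19.3% with wild-type BioNICD. Every guide sample was above every 4-OHT sample for 8 of the 10 genes (11.3% of all genes), above every ethanol sample for 8 (9.87%), above every wild-type BioNICD sample for 10 (13.4%) and above every DEP sample for 7 (12.4%). Lonrf1 and E2f6 did not meet this for 4-OHT, ethanol or DEP samples. Because guide and low control levels entered the choice of the 10 genes, these counts are a description.

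**Figure D1:**
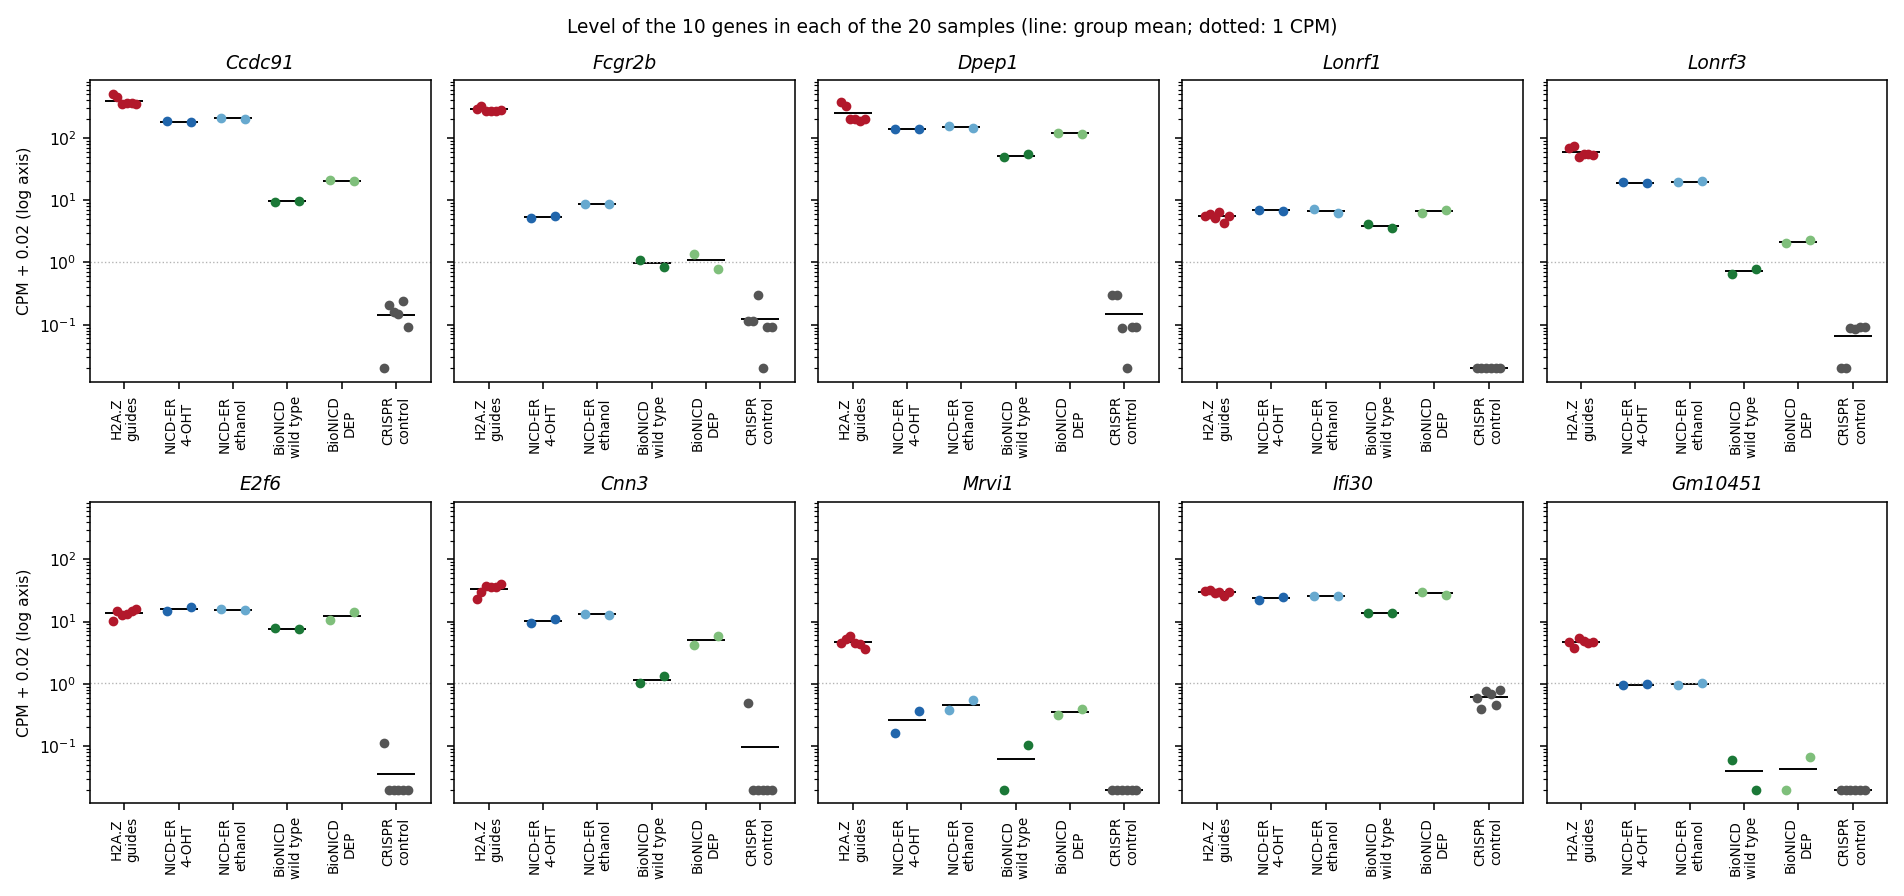
Level of each of the 10 genes in each of the 20 samples, in CPM plus 0.02 on a log axis; points are samples, black lines are group means and the dotted line marks 1 CPM. The 6 control samples lie below 1 CPM in all 10 panels, and Lonrf1, E2f6 and Ifi30 show NICD samples at the level of the guide samples.

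Fcgr2b encodes the inhibitory receptor for the constant region of immunoglobulin G, found on B cells and myeloid cells. Its gene lies on chromosome 1, from 172890689 to 172906202 on the minus strand (mm9). Among the guide samples Fcgr2b ran from 268 to 329 CPM with a median of 279. NICD-ER cells had 5.17 and 5.62 CPM with 4-OHT and 8.68 and 8.56 CPM with ethanol. BioNICD cells had 1.09 and 0.837 CPM with the wild type and 1.36 and 0.752 CPM with the DEP mutant. Controls ran from 0 to 0.275 CPM, with a median of 0.0836 and 8 counts in all. No NICD sample came near the guide samples: the guide mean was 33.2 times the NICD-ER ethanol mean and 298 times the wild-type BioNICD mean. The next gene up the chromosome that passed the count filter was Fcgr3, an activating receptor of the same family 75.1 kb away. Fcgr3 was also higher with the guides, at 1.12 ± 0.181 CPM against 0.286 ± 0.111 CPM in the control (SD, n = 6 each; log2 fold change 1.97, SE 0.266, adjusted p = 7.98e-06). Unlike Fcgr2b, Fcgr3 reached the guide level in NICD-ER cells, with means of 1.64 CPM with ethanol and 1.04 CPM with 4-OHT. Its mean was 0.654 CPM in DEP cells and 0.183 CPM with wild-type BioNICD, the latter below the control mean.

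The start-site window of Fcgr2b (250 bases before to 50 after the start) is shown beside that of Gm10451 because both genes had 6 CpG, and E2f6 and Cnn3 follow further on with 29 and 33. Sequences and coordinates of these windows are RefSeq's on GRCm38.p6, another build than the files' mm9. Capitals mark CpG. The Fcgr2b window is chr1:170976022-170976321, minus strand, and the Gm10451 window is chr12:76444247-76444546, plus strand.
Fcgr2b: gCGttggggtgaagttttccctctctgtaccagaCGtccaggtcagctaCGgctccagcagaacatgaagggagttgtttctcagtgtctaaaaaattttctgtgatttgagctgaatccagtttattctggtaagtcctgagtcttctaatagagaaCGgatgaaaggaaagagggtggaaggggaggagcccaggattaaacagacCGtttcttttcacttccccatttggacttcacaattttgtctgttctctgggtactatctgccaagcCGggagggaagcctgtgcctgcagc
Gm10451: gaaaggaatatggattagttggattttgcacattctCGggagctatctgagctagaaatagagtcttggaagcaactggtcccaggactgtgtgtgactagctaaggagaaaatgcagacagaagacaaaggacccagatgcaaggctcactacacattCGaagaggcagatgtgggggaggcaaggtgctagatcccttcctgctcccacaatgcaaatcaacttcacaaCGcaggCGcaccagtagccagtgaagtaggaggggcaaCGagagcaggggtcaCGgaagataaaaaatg

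Ifi30 encodes a lysosomal thiol reductase that opens disulfide bonds of antigens for presentation on class II molecules; it is induced by interferon gamma. It lies on chromosome 8, from 73286672 to 73290562 on the minus strand. Ifi30 ran from 26.2 to 31.7 CPM among the guide samples, with a median of 30.0. NICD-ER cells had 22.6 and 25.0 CPM with 4-OHT and 25.6 and 25.8 CPM with ethanol. The 2 wild-type BioNICD samples both had 13.5 CPM, and the DEP samples had 30.4 and 26.9 CPM. Controls ran from 0.379 to 0.773 CPM with a median of 0.61, the highest control level among the 10 genes. The DEP samples lay within the range of the guide samples. The wild-type BioNICD samples lay at 45.5% of the guide mean.

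Ccdc91 encodes a coiled-coil protein that binds GGA adaptors, which sort cargo at the trans-Golgi network. It lies on chromosome 6, from 147424393 to 147581134 on the plus strand. Ccdc91 ran from 346 to 509 CPM among the guide samples, with a median of 362. NICD-ER cells had 186 and 180 CPM with 4-OHT and 206 and 205 CPM with ethanol. BioNICD cells had 9.45 and 9.79 CPM with the wild type and 20.8 and 20.4 CPM with the DEP mutant. Controls ran from 0 to 0.219 CPM, with a median of 0.134 and 10 counts in all, against 35800 counts with the guides. The groups fell in a clear order with no overlap between neighbours: guides, NICD-ER with ethanol, NICD-ER with 4-OHT, DEP mutant, wild-type BioNICD and control.

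Dpep1 encodes a membrane-bound dipeptidase that cleaves cysteinylglycine, a product of glutathione breakdown, and converts leukotrienes. It lies on chromosome 8, from 125710135 to 125725713 on the plus strand. Dpep1 ran from 187 to 382 CPM among the guide samples, with a median of 202. NICD-ER cells had 137 and 140 CPM with 4-OHT and 154 and 145 CPM with ethanol. BioNICD cells had 48.9 and 55.0 CPM with the wild type and 119 and 117 CPM with the DEP mutant. Controls ran from 0 to 0.284 CPM, with a median of 0.0717. Dpep1 kept the same group order as Ccdc91, again with no overlap between neighbours. The 2 genes differed in the BioNICD lines, where Dpep1 reached 20.8% of its guide mean with the wild type and 47.3% with the DEP mutant, while Ccdc91 reached 2.42% and 5.19% of its guide mean in those groups.

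E2f6 encodes a member of the E2F family that represses transcription without binding retinoblastoma proteins and works with Polycomb-type complexes. It lies on chromosome 12, from 16817771 to 16833558 on the plus strand. E2f6 ran from 10.3 to 15.8 CPM among the guide samples, with a median of 14.1. NICD-ER cells had 15.0 and 17.1 CPM with 4-OHT and 15.9 and 15.1 CPM with ethanol. BioNICD cells had 7.80 and 7.45 CPM with the wild type and 10.7 and 14.0 CPM with the DEP mutant. In the control a single count was found, in replicate 1. With that count, the pooled guide level was 1084 times the control level, with a 95% counting interval of 194 to 42844. Without replicate 1 of either group the guide mean was 14.3 ± 1.17 CPM and the control held 0 counts (n = 5 each). The guide samples overlapped the NICD-ER samples and the DEP samples, all 4 NICD-ER samples lay above both DEP samples, and the wild-type BioNICD samples lay below all of these.

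E2f6 and Cnn3, which held 1 and 5 counts in the control, had CpG-rich start-site windows, which are shown for that reason (observed over expected CpG 0.86 and 68% GC for E2f6, 0.76 and 78.3% GC for Cnn3). The E2f6 window is chr12:16810715-16811014 and the Cnn3 window is chr3:121426291-121426590, both on the plus strand of GRCm38.p6 with CpG in capitals.
E2f6: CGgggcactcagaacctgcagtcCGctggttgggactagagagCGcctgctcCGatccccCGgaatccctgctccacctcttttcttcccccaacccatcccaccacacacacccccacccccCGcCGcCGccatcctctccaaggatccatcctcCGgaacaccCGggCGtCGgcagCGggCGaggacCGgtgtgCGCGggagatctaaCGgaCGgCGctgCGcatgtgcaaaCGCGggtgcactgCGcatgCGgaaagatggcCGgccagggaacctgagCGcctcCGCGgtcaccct
Cnn3: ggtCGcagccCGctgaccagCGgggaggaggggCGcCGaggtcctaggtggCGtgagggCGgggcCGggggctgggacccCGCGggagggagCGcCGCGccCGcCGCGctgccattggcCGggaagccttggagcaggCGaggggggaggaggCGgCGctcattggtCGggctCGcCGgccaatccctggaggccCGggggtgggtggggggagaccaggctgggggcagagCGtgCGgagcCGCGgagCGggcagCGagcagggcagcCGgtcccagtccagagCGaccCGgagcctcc

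Of the 10 genes, 9 had a RefSeq window, 11 windows in all. CpG-rich windows, with an observed over expected ratio of at least 0.6 and at least 50% GC, were found for Ccdc91, Cnn3 and E2f6; 33.5% of all 32851 windows met these limits. The median window held 7 CpG. The RBPJ motif TGGGAA, searched on both strands, was found in a window of Ccdc91, Ifi30 and Mrvi1, and in 25.6% of all windows. These matches describe the sequence only.

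Lonrf1 and Lonrf3 encode related proteins with a RING finger, the fold of many ubiquitin ligases, and a LON domain. Lonrf1 lies on chromosome 8, from 37279118 to 37312570 on the minus strand, and Lonrf3 on chromosome X, from 33868404 to 33906851 on the plus strand. Lonrf1 ran from 4.25 to 6.48 CPM among the guide samples, with a median of 5.60. NICD-ER cells had 6.86 and 6.80 CPM with 4-OHT and 7.22 and 6.21 CPM with ethanol. BioNICD cells had 4.14 and 3.51 CPM with the wild type and 6.13 and 7.05 CPM with the DEP mutant. No control sample held a Lonrf1 count. The pooled guide level was therefore at least 147-fold higher than the control floor of 3 counts over the group, and the level with the DEP mutant at least 175-fold higher. Lonrf1 was the only one of the 10 whose guide samples all lay below a NICD group, the 4-OHT samples. Over all genes, the guide samples lay below all 4-OHT samples for 16.6%, below all ethanol samples for 14.3%, below all wild-type BioNICD samples for 19.8% and below all DEP samples for 14.3%.

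Lonrf3 ran from 48.9 to 73.2 CPM among the guide samples, with a median of 55.3. NICD-ER cells had 19.6 and 18.6 CPM with 4-OHT and 19.6 and 20.3 CPM with ethanol. BioNICD cells had 0.643 and 0.753 CPM with the wild type and 2.00 and 2.25 CPM with the DEP mutant. Controls held 4 counts in all and ran from 0 to 0.0731 CPM, with a median of 0.0672. Lonrf3 therefore stood at 1.18% of its guide mean with wild-type BioNICD, where Lonrf1 stood at 69.3%.

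Cnn3 encodes acidic calponin, an actin-binding protein of smooth muscle and many other cells. It lies on chromosome 3, from 121129459 to 121161123 on the plus strand. Cnn3 ran from 23.1 to 39.7 CPM among the guide samples, with a median of 35.9. NICD-ER cells had 9.44 and 10.9 CPM with 4-OHT and 13.4 and 12.6 CPM with ethanol. BioNICD cells had 1.00 and 1.30 CPM with the wild type and 4.19 and 5.92 CPM with the DEP mutant. All 5 control counts were in replicate 1, the control library with fibroblast genes. The lowest guide value was likewise that of replicate 1, and without replicate 1 the guides averaged 35.8 ± 3.42 CPM and the control held 0 counts (n = 5 each).

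Mrvi1 encodes IRAG, a partner of the inositol trisphosphate receptor through which cGMP kinase lowers calcium release. It lies on chromosome 7, from 118011772 to 118125975 on the minus strand. Gm10451 lies on chromosome 12, from 77545484 to 77549685 on the plus strand. Mrvi1 ran from 3.65 to 5.75 CPM among the guide samples, with a median of 4.51, against 0 counts in the control. NICD-ER cells had 0.14 and 0.342 CPM with 4-OHT and 0.356 and 0.528 CPM with ethanol. BioNICD cells had 0 and 0.0837 CPM with the wild type and 0.295 and 0.376 CPM with the DEP mutant. Gm10451 ran from 3.75 to 5.37 CPM among the guide samples, with a median of 4.66, against 0 counts in the control. NICD-ER cells had 0.927 and 0.978 CPM with 4-OHT and 0.939 and 0.993 CPM with ethanol. BioNICD cells held 2 Gm10451 counts with the wild type and 1 with the DEP mutant. These 2 genes were the least expressed outside the guide line. The pooled guide levels were at least 123-fold (Mrvi1) and at least 122-fold (Gm10451) higher than the control floor. Gm16336, which overlaps Mrvi1, had 0 counts in the control; the deposited counts use no strand option, so overlapping reads cannot be assigned to 1 strand.

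Per kilobase of exon, the 10 genes spread over a wide range in the guide samples. Fcgr2b averaged 185 ± 14.5, Ccdc91 161 ± 26.7 and Dpep1 111 ± 37.0 RPKM (CPM per kilobase of exon; SD, n = 6 each). Ifi30 averaged 30.2 RPKM, Cnn3 16.8, Lonrf3 8.05, E2f6 5.48, Gm10451 5.21, Lonrf1 1.41 and Mrvi1 0.726.

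The BioNICD lines were compared with each other, wild type against the DEP mutant. Each form of NICD came with its own cells, so the form and the line cannot be told apart. 8 of the 10 genes were lower with the wild type, none was higher, and Fcgr2b and Gm10451 were not called. Across the 12499 genes tested, 65.6% were called, 33.6% as lower and 32% as higher, so calls were common in this comparison. The median log2 fold change of the 10 genes was -1.11, beside -0.02 for all genes. In all 8 called genes both wild-type samples lay below both DEP samples, which with 2 samples each adds little to the calls. The share of all genes that separated in this way was not counted. Cnn3 averaged 1.15 ± 0.206 CPM with the wild type and 5.05 ± 1.22 CPM with the DEP mutant (SD, n = 2 each; log2 fold change -2.23, SE 0.206, adjusted p = 1.81e-09). Dpep1 averaged 52.0 ± 4.36 CPM with the wild type and 118 ± 1.11 CPM with the DEP mutant (log2 fold change -1.21, SE 0.0509, adjusted p = 8.73e-16). Lonrf3 had a log2 fold change of -1.67, Ccdc91 of -1.12, Ifi30 of -1.10, Lonrf1 of -0.78 and E2f6 of -0.72, with adjusted p between 5.48e-05 and 1.96e-12. Mrvi1 rested on 2 counts with the wild type against 13 with the DEP mutant (adjusted p = 0.00402), and without wild-type replicate 1 its adjusted p was 0.114. For Fcgr2b, at 0.961 ± 0.176 CPM against 1.05 ± 0.428 CPM, the log2 fold change was -0.05 with an SE of 0.301.

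Some gene lists moved the opposite way between the same samples, where 32% of all genes were called as higher, and others were mixed. Of 15 tested genes of class II antigen processing, the pathway of Ifi30, 13 were higher with the wild type and 1 was lower, with a median log2 fold change of 2.13, while Ifi30 itself was lower. Of 9 tested Fc receptor family members and partners, 7 were higher and 1 was lower. Of 24 tested E2F family members and E2F6 partners, 7 were higher and 10 were lower. Of 19 tested GGA and AP-1 sorting genes, 6 were higher and 7 were lower. Marker sums also differed. B cell genes summed to 1611 to 1663 CPM with the wild type and to 0.826 to 1.08 CPM with the DEP mutant, though Ms4a1 was at 0 in the wild-type samples; Cd22 and Blk reached 1 CPM there. NK genes summed to 282 to 287 CPM with the wild type and 3.62 to 4.66 CPM with the DEP mutant, and myeloid genes to 113 to 116 CPM against 24.8 to 28.7 CPM. With the wild type, 3 of 7 NK genes reached 1 CPM, Il2rb (186 CPM), Nkg7 (95.3 CPM) and Ncr1, and Klrb1c and Eomes were at 0. Of 11 myeloid genes, 3 reached 1 CPM there (Itgam, Cd68 and Spi1), and Fcgr1 and Elane were at 0. The part of these shifts in the values of the 10 genes was not tested.

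In the NICD-ER line, 3 of the 10 genes were lower after 24 hours of 4-OHT and none was higher, in a comparison where 36.2% of all genes were called, 17.2% as lower and 19% as higher. Fcgr2b averaged 5.40 ± 0.320 CPM with 4-OHT and 8.62 ± 0.0781 CPM with ethanol (SD, n = 2 each; log2 fold change -0.67, SE 0.125, adjusted p = 0.000158). Ccdc91 averaged 183 ± 4.19 CPM with 4-OHT and 206 ± 0.895 CPM with ethanol, a small difference (log2 fold change -0.17, SE 0.0368, adjusted p = 0.001). In a model over all 20 samples, which had no term for the submission set, its adjusted p was 0.658. Cnn3 averaged 10.1 ± 1.00 CPM with 4-OHT and 13.0 ± 0.523 CPM with ethanol (log2 fold change -0.35, SE 0.107, adjusted p = 0.0123). The Cnn3 call was lost without 4-OHT replicate 1 (adjusted p = 0.144) and without ethanol replicate 1 (adjusted p = 0.0603). DESeq2 (adjusted p = 0.0743) and the model over all 20 samples (adjusted p = 0.612) did not call it either. The other 7 genes had log2 fold changes between -0.83 (Mrvi1, SE 0.529) and 0.06 (E2f6, SE 0.0927). Marker sums moved in this comparison too. B cell genes summed to 162 to 163 CPM with 4-OHT and 8.56 to 11.5 CPM with ethanol, where Cd22 was the 1 marker of 10 at 1 CPM or more in either group and Ms4a1 and Cd79b were at 0 with 4-OHT. NK genes summed to 28.4 to 28.7 CPM with 4-OHT and 7.25 to 7.66 CPM with ethanol, with Ncr1, Klrk1, Klrd1 and Eomes at 0 in both groups. Their part in the values of the 10 genes was not tested.

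The 2 NICD designs were set against each other, as the difference between their log2 fold changes. The BioNICD effect (wild type over DEP mutant) minus the NICD-ER effect (4-OHT over ethanol) was below 0 for 7 genes and above 0 for none, in a test that called 51.5% of all genes, 26.4% as lower and 25.1% as higher. The difference was -1.88 for Cnn3 (SE 0.234, adjusted p = 4.84e-07), -1.61 for Lonrf3 (SE 0.252, adjusted p = 1.14e-05) and -1.11 for Dpep1 (SE 0.0675, adjusted p = 3.5e-12). Ifi30, Ccdc91, Lonrf1 and E2f6 lay between -0.99 and -0.78. Fcgr2b (0.62, SE 0.323), Mrvi1 (-2.65, SE 1.17) and Gm10451 (0.04, SE 1.7) were not called. The designs also differ in plasmid, selection and time, which cannot be told apart from the form of NICD.

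2 of the NICD lines were then compared across designs, NICD-ER with ethanol against the DEP mutant. 7 of the 10 genes were higher in NICD-ER cells and none was lower; 55.9% of all genes were called, 28.6% as higher and 27.3% as lower. The DEP samples are shared with the wild-type comparison, so the 2 results are not independent. Ccdc91 averaged 206 ± 0.895 CPM in NICD-ER cells and 20.6 ± 0.305 CPM in DEP cells (SD, n = 2 each; log2 fold change 3.30, SE 0.0505, adjusted p = 2.66e-23). On the log2 scale Lonrf3 differed by 3.20 (SE 0.13, adjusted p = 2.97e-15), Fcgr2b by 3.05 (SE 0.205, adjusted p = 1.9e-11) and Cnn3 by 1.32 (SE 0.137, adjusted p = 2.48e-08). Gm10451 held 61 counts in NICD-ER cells against 1 in DEP cells (adjusted p = 1.01e-05). Dpep1 (0.32, SE 0.0472, adjusted p = 3.85e-06) and E2f6 (0.30, SE 0.107, adjusted p = 0.021) differed by little, and the E2f6 call was lost without DEP replicate 1 (adjusted p = 0.351) and without ethanol replicate 1 (adjusted p = 0.0635). In a model over all 20 samples, which had no term for the submission set, neither Dpep1 (SE 0.261, adjusted p = 0.391) nor E2f6 (SE 0.183, adjusted p = 0.222) was called. This left 5 of the 10 genes. B cell genes summed to 8.56 to 11.5 CPM in NICD-ER cells with ethanol and 0.826 to 1.08 CPM in DEP cells. Of 10 B cell genes only Cd22 reached 1 CPM, at 9.68 CPM with ethanol against 0.618 CPM in DEP cells. NK genes summed to 7.25 to 7.66 CPM against 3.62 to 4.66 CPM. Of 7 NK genes only Il2rb reached 1 CPM (6.73 against 3.89 CPM), and Ncr1, Klrk1, Klrd1 and Eomes were at 0 in both groups. The part of these sums in the values of the 10 genes was not tested. Lonrf1 (0.00, SE 0.135), Ifi30 (-0.17, SE 0.0756) and Mrvi1 (0.36, SE 0.59) were not called.

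**Figure D2:**
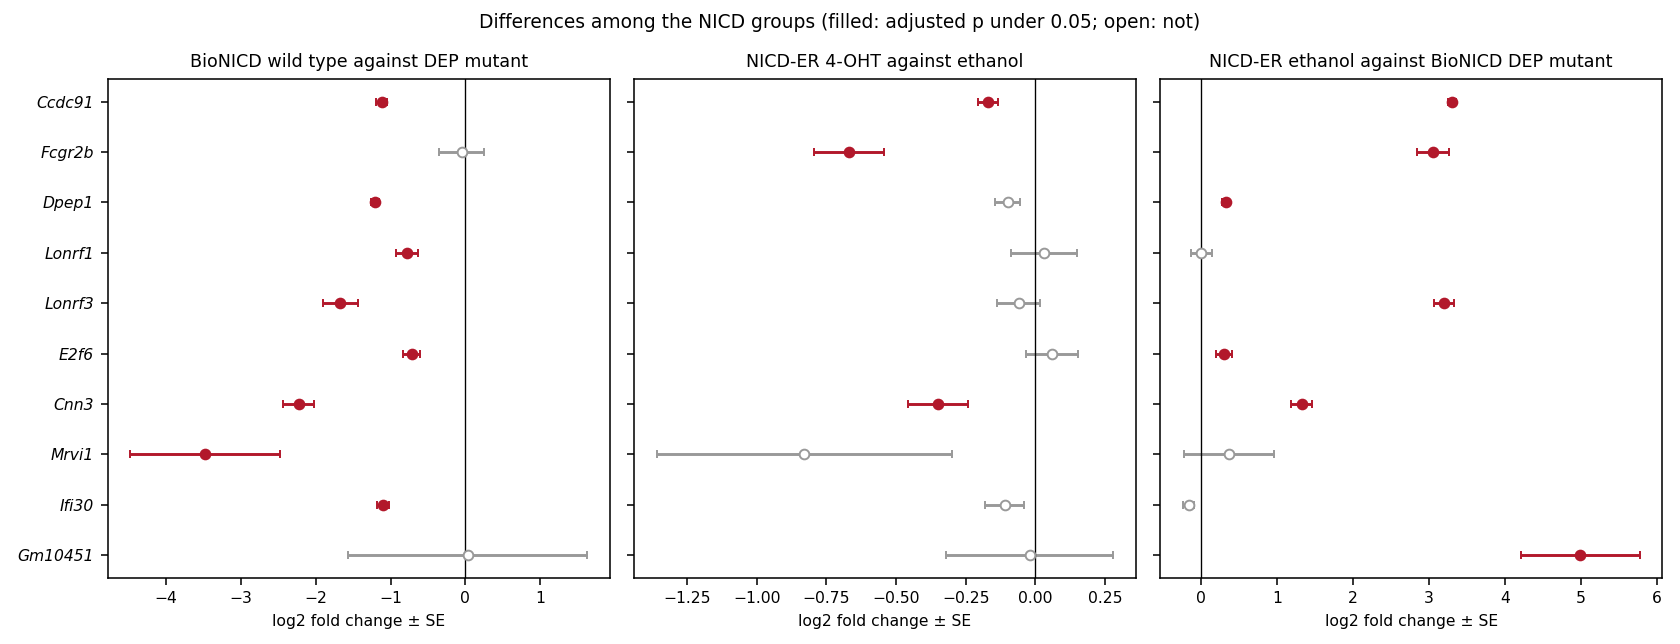
Log2 fold change with its SE of each of the 10 genes in the 3 comparisons among the NICD groups, the first-named group over the second; filled points passed an adjusted p of 0.05 and open points did not. 8 genes lie left of 0 and filled for wild-type BioNICD over the DEP mutant, and 4 lie beyond 2 for NICD-ER with ethanol over the DEP mutant.

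Across the 8 NICD samples, levels of the 10 genes ran together, with a median pairwise Pearson correlation of 0.83 and a range of 0.39 to 1.00. Across the 6 guide samples the median was 0.05, from -0.96 to 0.98. Both are descriptions, and the samples within each set share lines and libraries.

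Within the guide line, replicates 3 to 6, which lack a treatment entry in the labels, were compared with replicates 1 and 2. Cnn3 was higher in replicates 3 to 6 and Dpep1, Ccdc91 and Lonrf3 were lower, 4 of 10 in a comparison that called 36.5% of all genes, 16.8% as higher and 19.8% as lower. Dpep1 ran from 187 to 203 CPM in replicates 3 to 6 and had 382 and 326 CPM in replicates 1 and 2 (log2 fold change -0.85, SE 0.0702, adjusted p = 6.6e-05). Ccdc91 ran from 346 to 364 CPM in replicates 3 to 6 and had 509 and 447 CPM in replicates 1 and 2 (log2 fold change -0.42, SE 0.0629, adjusted p = 0.00119). Lonrf3 ran from 48.9 to 55.5 CPM in replicates 3 to 6 and had 68.8 and 73.2 CPM in replicates 1 and 2 (log2 fold change -0.41, SE 0.0743, adjusted p = 0.00287). Cnn3 ran from 35.6 to 39.7 CPM in replicates 3 to 6 and had 23.1 and 30.3 CPM in replicates 1 and 2 (log2 fold change 0.46, SE 0.112, adjusted p = 0.0115). All 4 calls held without guide replicate 1, the library with fibroblast genes, and Fcgr2b was then called as lower too (-0.24, adjusted p = 3.8e-05). Guide replicates 5 and 6 held 7.67% and 6.93% of their counts in Rn45s, the ribosomal RNA precursor, against 2.7% to 3.42% in the other guide samples; without them only Dpep1 of the 4 was called. Ifi30 and Fcgr2b varied least over the 6 guide samples, with coefficients of variation of 6.61% and 7.81%, and Dpep1 varied most at 33.3%.

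**Figure D3:**
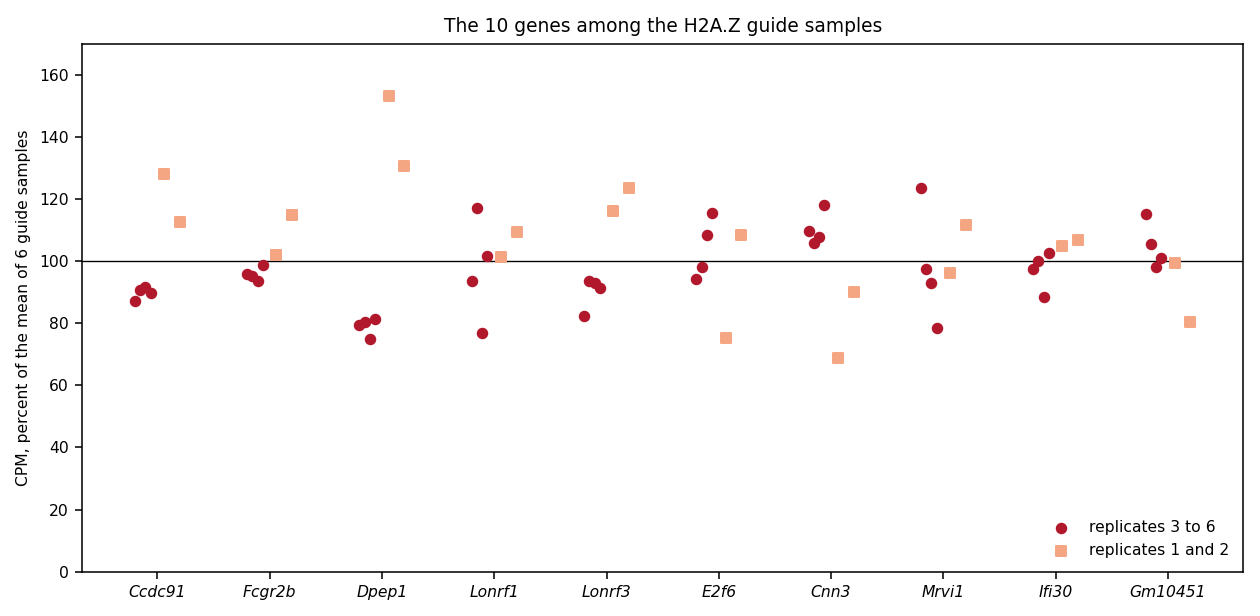
Each of the 10 genes in the 6 H2A.Z guide samples, as a percentage of the mean of the 6; dark circles are replicates 3 to 6 and light squares are replicates 1 and 2. For Dpep1, Ccdc91 and Lonrf3 the circles lie below the squares, and for Cnn3 they lie above.

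Of the 20 nearest annotated genes on either side of the 10 genes, 6 averaged at least 1 CPM in the control and 14 averaged 0 to 0.489 CPM. For each of the 10 genes, the nearest gene on each side that passed the count filter was tested between guides and control, 20 neighbours in all, whose expression the filter fixed. With the guides 11 were higher and 7 were lower, where 64.5% of all 10662 genes were called, 31.8% as higher and 32.7% as lower. Of the 20, 3 were called with a change of at least 2-fold (9.26% of all genes, 5.05% higher and 4.21% lower): Fcgr3 and Pik3r2 were higher and Mfhas1 was lower. Without guide replicate 1 and control replicate 1, the libraries with fibroblast genes, the call of Far2 was lost (-0.68 with them, -0.47 without, adjusted p = 0.124 without) and Alg14 was called (0.06 with them, 0.22 without, adjusted p = 0.0211 without). Pik3r2, a regulatory subunit of phosphoinositide kinase that lies 1.52 kb from Ifi30, averaged 126 ± 37.3 CPM in guide cells and 33.8 ± 1.19 CPM in control cells (SD, n = 6 each; log2 fold change 1.85, SE 0.101, adjusted p = 2.09e-10). Mpv17l2, 1.85 kb on the other side of Ifi30, averaged 33.0 ± 6.62 CPM in guide cells and 21.7 ± 1.45 CPM in control cells (log2 fold change 0.58, SE 0.0847, adjusted p = 1.82e-05). Chmp1a, 2.45 kb from Dpep1, averaged 46.5 ± 6.19 CPM in guide cells and 24.1 ± 1.26 CPM in control cells (log2 fold change 0.94, SE 0.0624, adjusted p = 2.23e-09). Mfhas1, 537 kb from Lonrf1, averaged 0.031 ± 0.0341 CPM in guide cells and 2.46 ± 0.471 CPM in control cells (log2 fold change -5.88, SE 0.367, adjusted p = 9.99e-10). 3 of the 10 genes (Dpep1, Lonrf1 and Ifi30) lie on chromosome 8, where the 572 tested genes had a median log2 fold change of 0.51, beside -0.01 for all genes and between -0.08 and -0.01 on the other chromosomes that hold a member.

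**Figure D4:**
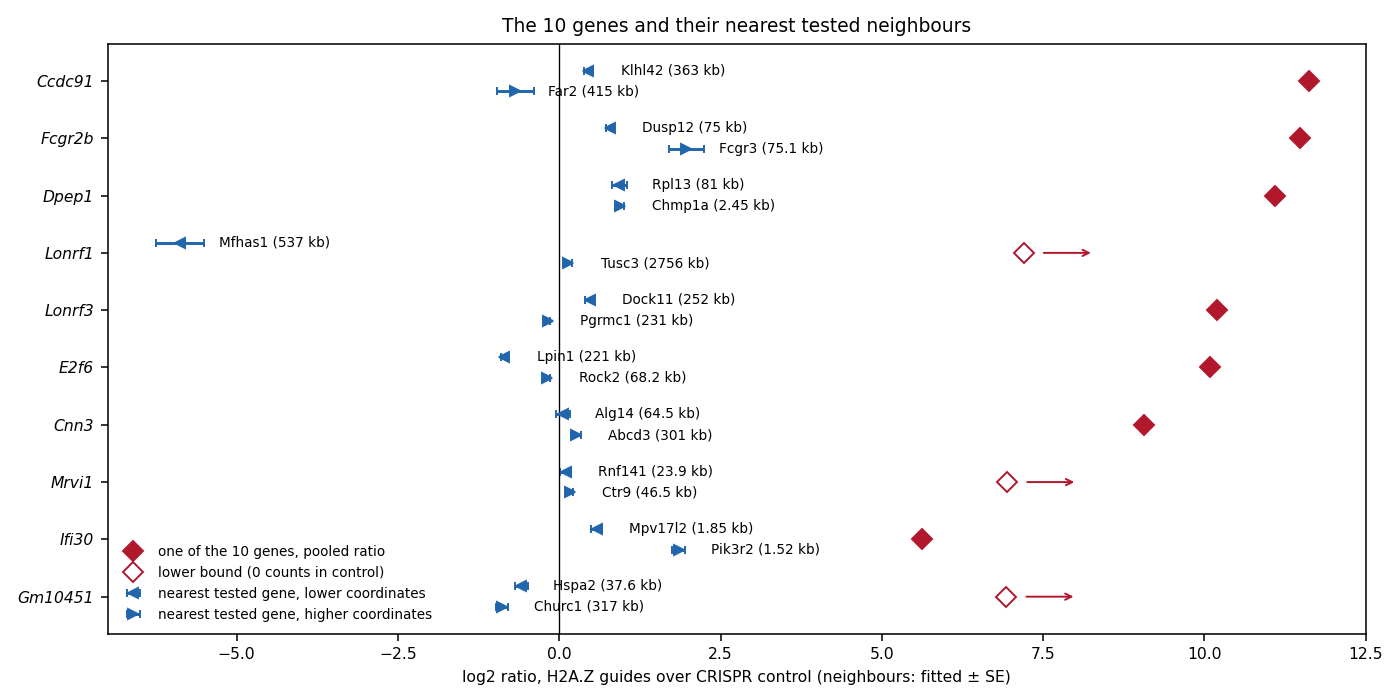
Log2 ratio of guides over control, pooled over 6 samples each, for the 10 genes (diamonds; open with an arrow where the control held 0 counts, so the ratio to the floor of 3 counts is a lower bound), and fitted log2 fold change of the nearest tested gene on each side (triangles, with SE and distance). The diamonds were chosen for this difference; 19 of the 20 triangles lie between -1 and 2, and Mfhas1 lies at -5.88.

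Genes of the same families or pathways were counted in the same comparison, guides against control. Of 4 tested Fc receptor family members and partners, 3 were higher and 1 was lower, Ptpn6, a phosphatase of inhibitory receptors (log2 fold change -1.39, SE 0.0995, adjusted p = 5.3e-09). Of 24 tested E2F family members and E2F6 partners, 10 were higher and 6 were lower; Rbl2, a retinoblastoma relative, had 221 CPM in guide cells and 82.4 CPM in control cells (log2 fold change 1.42), and Tfdp2, an E2F dimer partner, had 43.9 CPM against 18.6 CPM (log2 fold change 1.23). None of 5 germline genes that E2F6 is known to repress had enough counts to be tested. Of 10 tested class II processing genes, 4 were higher and 4 were lower. Lgmn, a lysosomal endopeptidase, was higher (27.4 CPM with the guides, 0.171 CPM in the control, log2 fold change 7.15), as was H2-Oa (1.15), while Ctsl (-3.25) and H2-DMb1 (-2.88) were lower. The Ctsl difference was -4.56 without guide replicate 1 and control replicate 1 (adjusted p = 9e-10), and it was not called within replicates 1 and 2 alone (-0.84, adjusted p = 0.447). Of 18 tested GGA and AP-1 sorting genes, 6 were higher and 4 were lower, among them Igf2r, a cargo receptor (-1.38). Of 10 tested dipeptidase and glutathione genes, 5 were higher and 3 were lower. Of 7 tested genes around IRAG and the inositol trisphosphate receptor, 6 were higher and 1 was lower. Both tested calponin relatives, Cnn2 and Tagln2, were higher, and of 3 LON domain genes 1 was higher and 1 was lower. The medians of these lists lay between -0.05 and 0.62, beside -0.01 for all genes.

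Of 11 tested T cell genes, 5 were higher with the guides and 4 were lower; Cd247 (log2 fold change 7.55) and Cd4 (4.23) were higher, and Cd2 (-1.52) and Lck (-1.51) were lower. No B cell gene was tested, since none had enough counts. Il2rb was the 1 NK gene tested and was higher (3.06), and Cd68 (myeloid, -1.65), Acta2 (smooth muscle, -1.73) and Alas2 (erythroid, -0.59) were lower.

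The 10 genes were not the only ones with this pattern. The highest control mean among them was 0.594 CPM (Ifi30) and the lowest guide mean was 4.65 CPM (Gm10451); 26 genes met both limits, 16 of them others. Fut10, a fucosyltransferase, was among these, with 100 ± 17.4 CPM in the guides and 0.409 CPM in the control. Of the 16 others, 14 were at 1 CPM or more in both NICD-ER ethanol samples and 4 in all 8 NICD samples. The gene whose level followed that of a member most closely over the 20 samples was chosen among 11433 genes by Pearson correlation of log2(CPM + 0.5). Of the 20 samples, 12 are the guide and control samples on which the 10 genes were chosen, so that contrast largely sets these correlations. Over the 8 NICD samples alone the same pairs had correlations of 0.73 to 1.00, lowest for Lonrf1 with Adgre5 and Mrvi1 with D630045J12Rik (both 0.73) and highest for Dpep1 with Fut10. Fut10 was closest to Ifi30 (0.995) and Dpep1 (0.992), and Adgre5, an adhesion receptor, to E2f6 (0.991) and Lonrf1 (0.988). Ash2l was closest to Lonrf3 (0.989) and Cnn3 (0.986), Fbxo28 to Fcgr2b (0.992), Cpt1a to Gm10451 (0.991), Fto to Ccdc91 (0.986) and D630045J12Rik to Mrvi1 (0.985). Fut10 averaged 100, 71.8, 77.2, 27.2, 61.4 and 0.409 CPM with the guides, 4-OHT, ethanol, wild-type BioNICD, the DEP mutant and the control, the same group order as Dpep1.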

How the data were processed

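Total RNA cleared of ribosomal RNA was turned into stranded libraries, per the labels' protocols. The authors counted reads over exons per gene on mm9 with featureCounts 1.5.0 and no strand option, per the file headers. The deposited values are raw counts for 24391 genes, with an exon length per gene in the same files. FastQC, Trimmomatic, STAR and DESeq2 also appear in the submitters' processing notes; for these a version is not given in the sources used here.

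Genes were tested with edgeR's quasi-likelihood method (edgeR 4.0.16, R 4.3.3) with TMM factors, filterByExpr and Benjamini-Hochberg adjustment across every gene tested; calls needed an adjusted p under 0.05. The 8 NICD samples shared 1 model (12499 genes, 4 residual degrees of freedom), the 6 guide samples had another (10806 genes), and guides against control rested on 12 CRISPR samples, with the submission set (replicates 1 and 2, or 3 to 6) as a covariate (10662 genes). SE is the absolute log2 fold change over the root of F. RPKM is CPM per kilobase of exon. Intervals (95%) and floors cover counting error only. The scripts were tested on simulated data.

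The 10 genes and the 16 lists were chosen with earlier results of these data known. The test of the difference between the BioNICD and NICD-ER effects was added after the data were seen. Genes were named by rule: the 10 genes, per list the 4 largest called changes of at least 2-fold between guides and control, the nearest tested gene on each side, the closest gene by correlation, H2afz and H2afv. Genes outside it (markers named for a level, a sum or a count, Cnn2, Tagln2, Gm16336 and Rn45s) were chosen after their values were seen. The closest replicate pair had a mean chi-square of 2.66, where sampling noise gives about 1, so no pair was merged. Samples of the CRISPR groups were clustered, however. Guide replicates 3 and 4 (2.75) and 5 and 6 (3.23) were close, against 39 to 53.6 between these pairs. Control replicates 3, 4 and 5 lay at 2.99 to 4.43 from each other and at 34 to 37.1 from replicate 6. Each was counted as a separate sample, so SD, SE and p-values may understate the spread. Alternatives were DESeq2 1.42.0, RLE and upper quartile scaling, no count filter, a replicate block, a model over all 20 samples, single submission sets and left-out samples. The model over all 20 samples had a coefficient per group and no term for the submission set, although the guide and control groups span both sets. The fitted biological coefficient of variation was 3.58% in the NICD samples and 7.95% in guides against control.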

Additional observations from a re-analysis of the deposited data

Results flagged for a closer look

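The difference between the BioNICD effect (wild type over DEP mutant) and the NICD-ER effect (4-OHT over ethanol) passed its test for 7 of the 10 genes on the log2 scale: Cnn3 at -1.88, Lonrf3 at -1.61, Dpep1 at -1.11, Ifi30 at -0.99, Ccdc91 at -0.96, Lonrf1 at -0.81 and E2f6 at -0.78 (edgeR, adjusted p between 0.0009 and 3.5e-12). The same test called 51.5% of all 12499 genes, 26.4% as lower and 25.1% as higher. All 7 kept their call and direction under all 13 alternatives run for this test.

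A control sample stood far from the other 5 for 3 genes. Cnn3 in control replicate 1 was at 0.47 CPM, all 5 counts of the group. E2f6 in the same sample was at 0.094 CPM, which is 1 count. Fcgr2b in control replicate 3 was at 0.275 CPM, 4 of the 8 counts of the group. No guide sample stood apart by the same measure. The usual rate of about 1 group in 20 (0.05) set apart by chance does not hold here, since in a group at 0 a single count in 1 sample is enough.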

How the results depend on the processing

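The count of the 10 genes at 1 CPM or more in all 8 NICD samples was 6 under both other scalings and without each NICD sample in turn. Guides against control called 6874 genes, 2948 within replicates 1 and 2 alone, and 6582 to 7397 leaving out single samples; Abcd3, a neighbour of Cnn3, was at 0.26 and reversed to -0.05 (adjusted p = 0.824) within replicates 1 and 2. In a model over all 20 samples, 4-OHT against ethanol called 880 genes in place of 4521 and 1 of the 10 genes in place of 3, wild type against DEP called 4670 in place of 8194, and ethanol against DEP called 2962 in place of 6986 and 5 of the 10 genes in place of 7; the cause was not tested. Guide replicates 3 to 6 against 1 and 2 called 3948 genes and 4 of the 10; without replicates 5 and 6 they called 884 genes and 1 of the 10, with fewer samples, and without replicate 2 they called 6238 genes. Leaving out single samples, the calls among the 10 genes ran from 2 to 4 for 4-OHT, 7 to 8 for wild type against DEP, 6 to 8 for ethanol against DEP, 4 to 5 among guide replicates and 7 to 8 for the difference between designs; gene counts ran from 3107 to 4251, 7236 to 7807, 5780 to 6574, 2880 to 6238 and 5599 to 6258.

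Over all genes, deviations of samples with the same replicate number correlated from -0.0786 to 0.128, with 1 pair (guide and control replicate 6) above 0.1, so the numbers were not taken to pair the samples; both replicates 1 held fibroblast genes and both replicates 6 were high in Rn45s. With the replicate number as a block, the comparisons called 5012 genes (4-OHT), 8406 (wild type against DEP), 7272 (ethanol against DEP), 6736 (difference between designs) and 6412 (guides against control). Of the single-gene values, 682 of the 704 obtained by leaving out a sample kept their call, and so did 584 of 611 under other alternatives. The call of Far2, a neighbour of Ccdc91, was lost under 12 of 21 alternatives. Depth limits Mrvi1 and Gm10451 most, since they held 2 counts each in wild-type BioNICD cells.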
